A study of Mus musculus with 14 samples.

Results

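The 33 genes described here encode enzymes and carriers of the tricarboxylic acid (TCA) cycle, of the entry of pyruvate and acetate into it, and of the malate-aspartate shuttle. They were chosen by name, with earlier results of these data known, and all 33 were found among the 55487 genes counted in mouse intervertebral disc. In the STZ-HFD mice 9 of them were higher than in control mice at an adjusted p under 0.05, where 1.65% of all genes tested were. None was lower, where 1.8% were. These calls rested on the weighting of the libraries and on single libraries, as given below. None passed with the level of skeletal muscle markers as a covariate, where 0.0946% of all genes were higher. In db/db mice 1 of them, *Mpc2*, passed the same test as higher, and the others lay on both sides of no change. Of all genes tested 1.42% were higher there and 0.508% lower.

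The TCA cycle runs in mitochondria and oxidizes acetyl groups to carbon dioxide, and its NADH and succinate feed the respiratory chain. Pyruvate crosses the inner mitochondrial membrane through a carrier of paired subunits and is then turned into acetyl-CoA by the pyruvate dehydrogenase complex or into oxaloacetate by pyruvate carboxylase. The malate-aspartate shuttle carries the electrons of cytosolic NADH into mitochondria by means of aminotransferases, malate dehydrogenases and exchange carriers. The disc has few blood vessels and its cells are known for relying on glycolysis, while skeletal muscle, which lies against the tail vertebrae, is rich in TCA cycle enzymes.

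RNA was sequenced from discs of 4 groups of male mice. The db/db mice (n = 3), which lack a working leptin receptor, and their db/+ littermates (n = 3), which carry 1 mutant copy, were taken at 12 weeks of age, and neither group was treated. The STZ-HFD mice (n = 4) were C57BL/6J mice that began as adults of 12 weeks, ate a high-fat diet for 4 to 6 weeks, were injected with streptozocin (STZ), a toxin of pancreatic beta cells, at 100 mg/kg, and stayed on the diet for another 12 weeks. The Con+Veh mice (n = 4), C57BL/6J mice on standard chow that were given the citrate buffer alone and are labelled wild type, were their controls. The models thus differ in age, diet, genotype and control, and each was compared with its own control only. Each library came from the pooled tail discs of a mouse, so p-values measure the spread between mice. The discs were ground whole, so a lower share of cells of a type and less RNA per cell cannot be told apart.

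Total counts ranged from 43397872 to 52363402 per library in the db groups and from 16076908 to 58943169 in the other cohort. Levels are given in CPM, counts scaled to a common library total, with TMM factors for the values of genes. Taken as the lowest level that can be told from 0, 3 counts corresponded to 0.0509 to 0.187 CPM by total counts alone, without TMM factors. These floors cover counting error only. Ribosomal RNA genes took 28.1% to 60.2% of the counts. A pair of libraries whose names end alike, Con+Veh replicate 2 and STZ-HFD replicate 4, had 21.8% and 21.1% of their counts on mitochondrial ribosomal RNA against 3.62% to 12.9% in the rest. Disc and cartilage markers were present throughout, with the summed CPM of 8 markers at 14360 to 24890 in db/+, 6647 to 15970 in db/db, 1713 to 3993 in Con+Veh and 768 to 1562 in STZ-HFD. In the cohort of STZ-HFD the summed CPM of 14 skeletal muscle markers was higher than that of the cartilage markers in every library. Of 6 markers of the notochord and nucleus pulposus, *T* ranged from 12.2 to 305.6 CPM, *Krt19* from 7.24 to 145 CPM, *Krt8* from 3.70 to 62.9 CPM and *Krt18* from 0.390 to 11.3 CPM, while *Shh* reached 2.38 CPM and *Noto* 0.164 CPM, each from 0. The libraries were weighted by their scatter in the fit, with weights from 0.275 (Con+Veh replicate 1) to 3.05 (Con+Veh replicate 3), and STZ-HFD replicate 1 had a weight of 0.379. That library also had the fewest counts, 16076908. Its TMM factor was 1.58, against 0.693 to 0.818 in the rest of its cohort, and its CPM values depend on that factor.

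Levels of the 33 genes were set in order per kilobase of exon. *Mdh2*, mitochondrial malate dehydrogenase, *Idh3g*, a regulatory subunit of the NAD-dependent isocitrate dehydrogenase, and *Ogdh*, the E1 subunit of the oxoglutarate dehydrogenase complex, held the top of the order in all 4 groups. In db/+ these reached 31.5 ± 7.84, 19.8 ± 3.63 and 20.6 ± 2.96 CPM per kilobase (mean ± SD, n = 3). In Con+Veh the level was 36.7 ± 5.43 CPM per kilobase for *Idh3g*, 32.8 ± 8.69 for *Mdh2* and 17.6 ± 4.16 for *Ogdh* (mean ± SD, n = 4), so the leading pair did not differ beyond its spread. *Got2* and *Idh2* followed, at 12.5 ± 4.88 and 13.6 ± 3.36 CPM per kilobase in Con+Veh, also within their spread of each other. At the other end were *Me3* (0.459 ± 0.162), *Ogdhl* (0.452 ± 0.226) and *Mpc1* (0.314 ± 0.101 CPM per kilobase in Con+Veh). *Mpc1*, which encodes a subunit of the pyruvate carrier, had 0.37 to 1.31 CPM in all libraries and did not pass the filter on low values, so 32 of the 33 genes were tested.

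Tests were made with limma on voomWithQualityWeights, with p-values adjusted over all 16915 genes tested, and calls needed an adjusted p below 0.05 together with a log2 fold change of 1 or more in size. In STZ-HFD against Con+Veh, 5 of the 32 genes were called higher, where 1.3% of all genes tested were, and none was called lower, where 1.31% of all genes were. With no minimum on the fold change 9 were higher, against a background of 1.65%, and none lower, against 1.8%. In all, 30 of 32 log2 fold changes were above 0, with a median of 0.83, while the median over all genes tested was -0.04. At an unadjusted p under 0.05 there were 23 higher and none lower, against 8.34% and 9.54% of all genes. In db/db against db/+, 1 gene was called higher against a background of 1.23% and none lower against 0.432%, and with no minimum on the fold change these counts stayed at 1 and none, with backgrounds of 1.42% and 0.508%. The log2 fold changes in db/db were above 0 for 17 of 32 genes, with a median of 0.02 beside -0.04 over all genes. At an unadjusted p under 0.05 there were 5 higher and 3 lower, near the background of 10.7% and 10.4% of all genes. The plot of fold changes sets the models side by side for each gene.

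**Figure D1:**
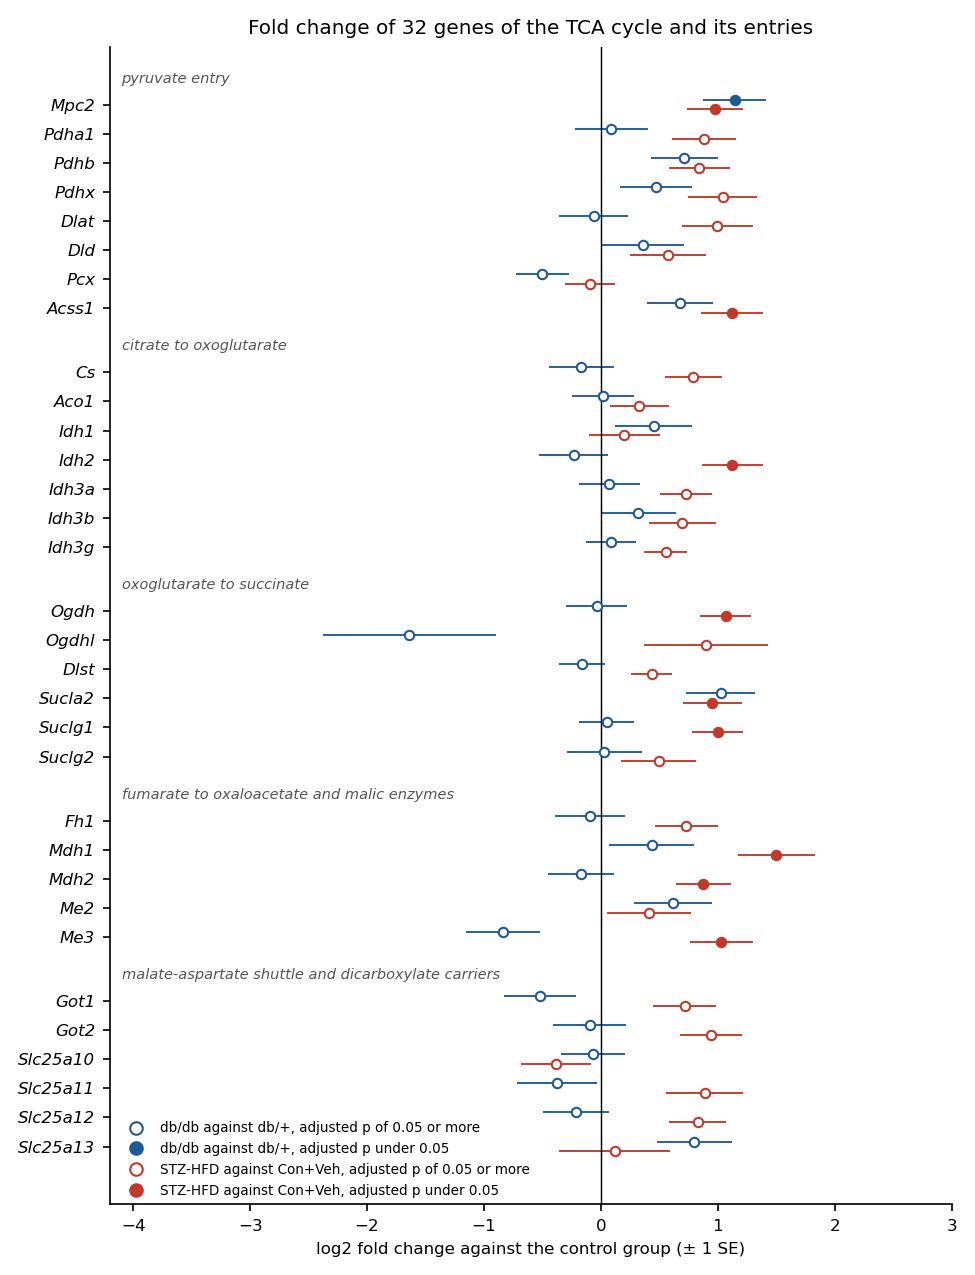
Log2 fold change of the 32 tested genes, grouped by role, in db/db against db/+ (blue) and in STZ-HFD against Con+Veh (red). Points are limma estimates, bars are 1 standard error, and filled points passed an adjusted p under 0.05. The red points lie right of 0 for 30 of 32 genes and the blue points for 17 of 32.

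Among the genes of pyruvate and acetate entry, *Mpc2* and *Acss1* rose in STZ-HFD. *Mpc2* (ENSMUSG00000026568, chromosome 1 from 165460637 to 165481214 of GRCm38), the partner of *Mpc1* in the pyruvate carrier, had 35.2, 28.4, 56.2 and 43.3 CPM in STZ-HFD and 18.4, 43.3, 19.6 and 23.03 CPM in Con+Veh. Con+Veh replicate 2 stood at the level of the STZ-HFD libraries and the groups overlapped. The log2 fold change was 0.97 (SE 0.24, adjusted p = 0.0321). *Acss1* (ENSMUSG00000027452, chromosome 2 from 150618105 to 150668500), mitochondrial acetyl-CoA synthetase, had 4.11, 6.26, 8.63 and 7.31 CPM in STZ-HFD and 2.55, 2.87, 3.53 and 3.42 CPM in Con+Veh. Its lowest STZ-HFD library was above the highest control, and the log2 fold change was 1.12 (SE 0.26, adjusted p = 0.0274). The subunits of the pyruvate dehydrogenase complex did not pass. *Pdhx*, the E3-binding protein, had a log2 fold change of 1.04 (SE 0.30, adjusted p = 0.0611), *Dlat*, the E2 acetyltransferase, 1.00 (SE 0.30, adjusted p = 0.079), *Pdha1* and *Pdhb*, the E1 subunits, 0.88 and 0.84 (adjusted p = 0.0831 and 0.0851). *Dld*, the E3 subunit that other complexes share, had 0.57 (adjusted p = 0.381). *Pcx*, pyruvate carboxylase, which refills oxaloacetate, had a log2 fold change of -0.09 (SE 0.21, adjusted p = 0.866), with 8.43 to 13.6 CPM in STZ-HFD and 9.41 to 12.8 CPM in Con+Veh.

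Of the 7 genes from citrate to oxoglutarate, *Idh2* rose in STZ-HFD. *Idh2* (ENSMUSG00000030541, chromosome 7 from 80094846 to 80115392), the NADP-dependent isocitrate dehydrogenase of mitochondria, had 56.7, 63.8, 104 and 71.4 CPM in STZ-HFD and 24.0, 44.8, 37.8 and 33.7 CPM in Con+Veh. The groups did not overlap, and the log2 fold change was 1.12 (SE 0.26, adjusted p = 0.0262). The catalytic subunit *Idh3a* of the NAD-dependent enzyme had a log2 fold change of 0.73 (adjusted p = 0.0845), *Idh3b* 0.70 (adjusted p = 0.2) and *Idh3g* 0.55 (SE 0.18, adjusted p = 0.103). *Idh3g* had 126 to 160.3 CPM in STZ-HFD and 78.6 to 113 CPM in Con+Veh, so its groups did not overlap although it missed the threshold. *Cs*, citrate synthase, often used as a gauge of mitochondrial content, had a log2 fold change of 0.79 (SE 0.24, adjusted p = 0.0803). It ranged from 33.6 CPM in STZ-HFD replicate 1, below every control, to 92.2 CPM in replicate 4. The cytosolic enzymes had smaller estimates, 0.33 (SE 0.25) for *Aco1*, cytosolic aconitase, and 0.20 (SE 0.30) for *Idh1*, cytosolic isocitrate dehydrogenase.

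From oxoglutarate to succinate, 3 of 6 genes rose in STZ-HFD. *Ogdh* (ENSMUSG00000020456, chromosome 11 from 6291633 to 6356642) had 101.3, 136.2, 231.2 and 208.9 CPM in STZ-HFD and 76.2, 127, 81.7 and 99.9 CPM in Con+Veh, with a log2 fold change of 1.07 (SE 0.21, adjusted p = 0.0154). *Suclg1* (ENSMUSG00000052738, chromosome 6 from 73248382 to 73276911), the alpha subunit of succinyl-CoA ligase, had 19.8, 18.9, 25.1 and 24.3 CPM in STZ-HFD and 9.10, 17.2, 11.2 and 11.1 CPM in Con+Veh, with a log2 fold change of 1.00 (SE 0.22, adjusted p = 0.0208). Every STZ-HFD library was above every control for *Suclg1*, while STZ-HFD replicate 1 overlapped the controls for *Ogdh*. *Sucla2* (ENSMUSG00000022110, chromosome 14 from 73525319 to 73596142), the ADP-forming beta subunit of the ligase, had 19.4, 12.6, 31.6 and 23.4 CPM in STZ-HFD and 7.91, 19.1, 12.0 and 10.97 CPM in Con+Veh, with a log2 fold change of 0.95 (SE 0.25, adjusted p = 0.045). The GDP-forming beta subunit *Suclg2* had 3.54 to 8.11 CPM in STZ-HFD and 2.17 to 7.17 CPM in Con+Veh (log2 fold change 0.50, SE 0.32, adjusted p = 0.452). *Dlst*, the E2 subunit of the oxoglutarate dehydrogenase complex, had a log2 fold change of 0.43 (SE 0.18, adjusted p = 0.194), and *Ogdhl*, a paralog of *Ogdh*, 0.90 (SE 0.53, adjusted p = 0.399).

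The malate dehydrogenases and a malic enzyme rose in STZ-HFD. *Mdh1* (ENSMUSG00000020321, chromosome 11 from 21556787 to 21572367), the cytosolic malate dehydrogenase, had 25.1, 21.7, 48.6 and 35.8 CPM in STZ-HFD and 2.66, 26.7, 13.2 and 12.2 CPM in Con+Veh. Con+Veh replicate 1 was the lowest library and replicate 2 overlapped the STZ-HFD mice. The log2 fold change of 1.498 (SE 0.33, adjusted p = 0.0208) had the highest estimate of the 32 genes in this comparison. *Mdh2* (ENSMUSG00000019179, chromosome 5 from 135778480 to 135790398) had 91.2, 207, 288 and 226 CPM in STZ-HFD and 72.8, 144, 119 and 131 CPM in Con+Veh. Its log2 fold change of 0.87 (SE 0.24, adjusted p = 0.0499) lay at the threshold, and STZ-HFD replicate 1 was within the range of the controls. *Me3* (ENSMUSG00000030621, chromosome 7 from 89632392 to 89854359), a mitochondrial NADP-dependent malic enzyme that turns malate into pyruvate, had 30.4, 14.1, 13.5 and 13.1 CPM in STZ-HFD and 3.42, 8.06, 6.63 and 8.75 CPM in Con+Veh. The groups did not overlap, and the log2 fold change was 1.03 (SE 0.27, adjusted p = 0.0416). *Fh1*, fumarate hydratase, had a log2 fold change of 0.73 (adjusted p = 0.153), and *Me2*, the NAD-dependent malic enzyme of mitochondria, 0.41 (adjusted p = 0.601).

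**Figure D2:**
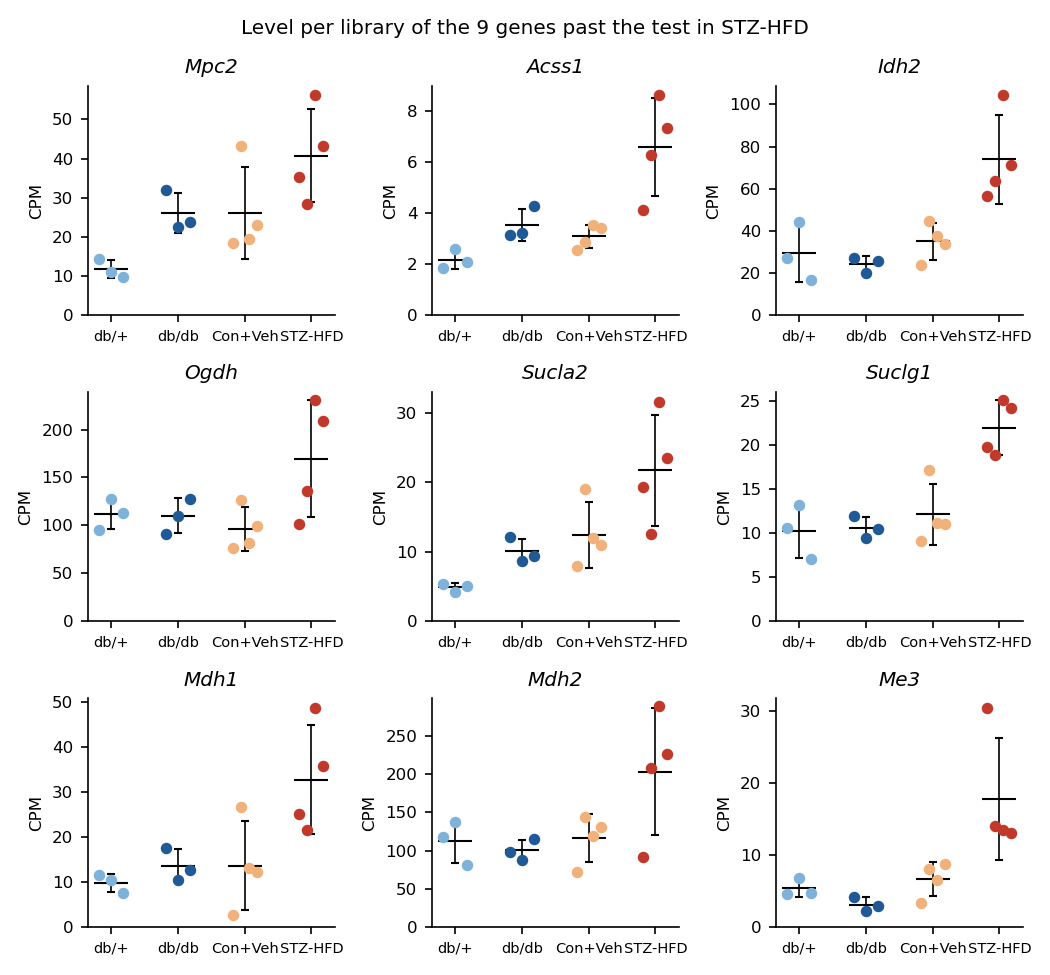
Level in CPM (vertical axes, from 0) of the 9 genes with an adjusted p under 0.05 in STZ-HFD against Con+Veh, in each library of the 4 groups. Points are libraries, horizontal marks are group means and bars are 1 SD. For *Acss1*, *Idh2*, *Suclg1* and *Me3* every STZ-HFD point is above every Con+Veh point, and for *Me3* the db/db points are all below the db/+ points.

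None of the 6 aminotransferase and carrier genes passed in STZ-HFD. The malate dehydrogenases *Mdh1* and *Mdh2*, which also act in the shuttle, passed as given above. The aminotransferases *Got2*, mitochondrial, and *Got1*, cytosolic, had log2 fold changes of 0.94 (SE 0.26, adjusted p = 0.0589) and 0.72 (SE 0.27, adjusted p = 0.16). *Slc25a11*, the oxoglutarate-malate carrier, had 0.89 (adjusted p = 0.155), and *Slc25a12*, the aspartate-glutamate carrier of excitable tissues, 0.83 (SE 0.24, adjusted p = 0.0686). The other aspartate-glutamate carrier, *Slc25a13*, best known from liver, had 0.12 (SE 0.47, adjusted p = 0.927), and *Slc25a10*, the dicarboxylate carrier that exchanges malate or succinate for phosphate, had -0.38 (SE 0.30, adjusted p = 0.554). With *Pcx* it made up the pair of genes with estimates below 0.

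Counted without a model, 5 of the 32 genes had STZ-HFD libraries all above the controls (*Acss1*, *Idh2*, *Idh3g*, *Suclg1* and *Me3*), where 1.97% of all genes tested did, and none had them all below, where 2.77% did. The libraries differed in this. In STZ-HFD replicates 3 and 4, 25 and 22 of the 32 genes were above all controls, against 20.1% and 14.5% of all genes. In replicates 1 and 2 the number was 10 each, against 25.7% and 19.0% of all genes. The 10 genes in replicate 1 were *Pdhx*, *Acss1*, *Idh2*, *Idh3a*, *Idh3g*, *Ogdhl*, *Sucla2*, *Suclg1*, *Me3* and *Got2*, and 4 genes, *Pcx*, *Cs*, *Dlst* and *Slc25a11*, were there below all controls, where 27.5% of all genes were.

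Most skeletal muscle markers also had higher estimates in STZ-HFD. Of 14 muscle markers 13 had a positive log2 fold change in STZ-HFD, with a median of 1.09, and 5 passed at an adjusted p under 0.05 (*Pvalb*, *Tnni2*, *Acta1*, *Myh2* and *Myh1*). None of the 14 was at 0 in every library. Their summed CPM was 25860 to 28460 in STZ-HFD replicates 2 to 4, above the 10740 to 15470 of Con+Veh, and 10540 in STZ-HFD replicate 1, below it. The median log2 difference of the 32 genes from the Con+Veh mean was 0.39, 0.27, 0.99 and 0.87 in STZ-HFD replicates 1 to 4. In Con+Veh it was -0.38, 0.46, -0.09 and -0.01 in replicates 1 to 4. The plot of this shift against the muscle sum sets these values side by side. STZ-HFD replicates 3 and 4 were highest in both, while Con+Veh replicate 1 had the highest muscle sum of the controls (15470) and the lowest shift. In STZ-HFD replicate 1, 2 of the 14 muscle markers (*Tnnc2* and *Tnni2*) were above all controls and 7 below, against 12 or 13 above in each of the other STZ-HFD libraries. With the mean muscle marker level as a covariate, the median log2 fold change of the 32 genes was 0.30 in STZ-HFD, 28 of 32 were above 0 and none passed, while 0.0946% of all genes were called higher. The 9 genes differed here, with 0.97 for *Me3* (1.03 without the covariate), 0.92 for *Acss1* (1.12) and 0.85 for *Ogdh* (1.07) and *Sucla2* (0.95). The estimate was 1.06 for *Mdh1* (1.498), 0.66 for *Mpc2* (0.97), 0.53 for *Suclg1* (1.00), 0.50 for *Idh2* (1.12) and 0.30 for *Mdh2* (0.87). Adipocyte markers had a summed CPM of 4448 to 8252 in STZ-HFD and 2546 to 4915 in Con+Veh, with 2 of 10 higher at an adjusted p under 0.05. With the adipocyte level as a covariate the median was 0.58, with 29 above 0 and none passing (0.0118% of all genes called higher). Of 3 brown adipocyte markers, a cell type rich in mitochondria, both that were tested had positive estimates and 1 passed (*Cox8b*, which muscle also expresses), and their summed CPM was 57.9 to 151 in STZ-HFD and 20.5 to 42.0 in Con+Veh, with no overlap. Macrophage markers were lower for 2 of 6 genes, with a median log2 fold change of -1.32. Cartilage markers were lower in STZ-HFD for 6 of 8 genes at an adjusted p under 0.05. The part of these markers in the result was not tested beyond these fits.

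**Figure D3:**
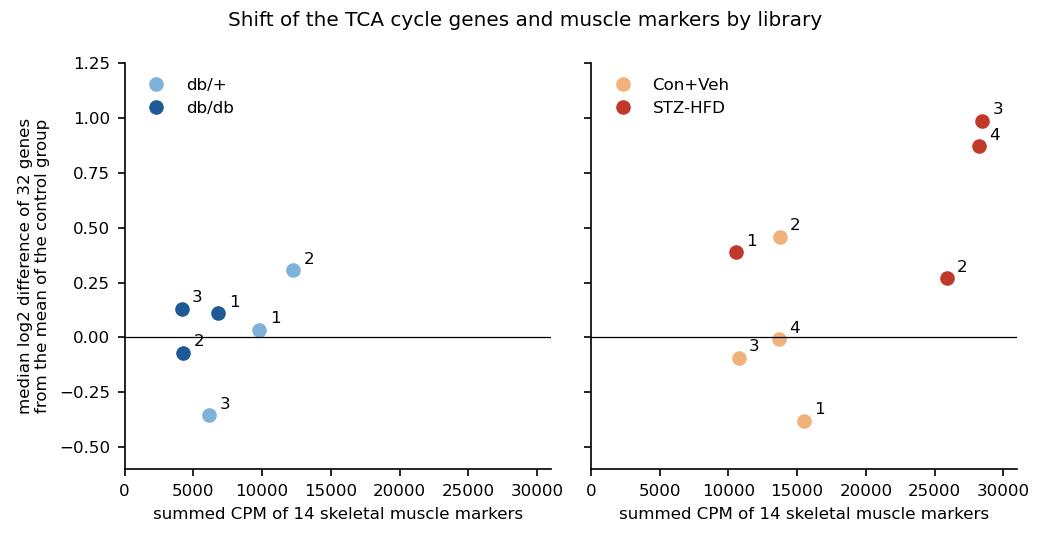
For each library, the median over the 32 genes of the log2 difference from the mean of its control group (vertical axes) against the summed CPM of 14 skeletal muscle markers (horizontal axes), with db/+ and db/db on the left and Con+Veh and STZ-HFD on the right. Numbers are replicates. STZ-HFD replicates 3 and 4 are highest on both axes, at 0.99 and 0.87, while STZ-HFD replicate 1 is at 0.39 with a muscle sum below those of the controls.

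The calls in STZ-HFD depended on the test and on single libraries. edgeR's quasi-likelihood test and voom without library weights each called none of the 32 genes, with 13 at an unadjusted p under 0.05 in each. At that p 5.7% and 4.72% of all genes were higher. These tests called few genes of any kind higher, 0.0355% and 0.0177% of all, and the log2 fold changes of the 9 genes were 0.64 to 1.41 and 0.68 to 1.60 in them. DESeq2 called 3 (*Acss1*, *Idh2* and *Me3*), and 0.721% of all genes. The number called higher was 0 without Con+Veh replicate 3 or 4 or STZ-HFD replicate 3 or 4, 10 without Con+Veh replicate 2 or STZ-HFD replicate 2, and 9 without STZ-HFD replicate 1. In the 4 fits with 0, the share of all genes called higher also fell, to 0.0179%, 0.0239%, 0.0178% and 0.379%, and the log2 fold changes of the 9 genes stayed between 0.62 and 1.61. Without both Con+Veh replicate 2 and STZ-HFD replicate 4 none passed, with 16 at an unadjusted p under 0.05 and a median log2 fold change of 0.72. In that fit 0.404% of all genes were called higher, and 6.58% were higher at an unadjusted p under 0.05. A replicate block also left none, with 10 at an unadjusted p under 0.05. With the block 0.0118% of all genes were called higher, and 2.48% were higher at an unadjusted p under 0.05.

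In db/db mice *Mpc2* rose. It had 32.1, 22.5 and 23.8 CPM in db/db and 14.3, 11.1 and 9.89 CPM in db/+, with no overlap and a log2 fold change of 1.14 (SE 0.27, adjusted p = 0.039). The call was lost when any of the 6 libraries of this model was left out, with estimates from 0.99 to 1.31, and under edgeR's quasi-likelihood test (adjusted p = 0.244). Without 1 of these libraries 0.0714% to 0.571% of all genes were called higher, and under the quasi-likelihood test none was, with 6.08% higher at an unadjusted p under 0.05. *Sucla2* had 12.1, 8.74 and 9.43 CPM in db/db and 5.44, 4.30 and 5.15 CPM in db/+. These groups did not overlap either, and the log2 fold change of 1.02 (SE 0.30, adjusted p = 0.0738) missed the threshold.

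In all, 5 genes had db/db libraries all above those of db/+ (*Mpc2*, *Pdhb*, *Pdhx*, *Acss1* and *Sucla2*), and 14.1% of all genes tested did. *Me3* was the 1 gene with db/db libraries all below, and 11.7% of all genes were, so these counts lie near the background. *Pdhb*, *Acss1* and *Pdhx* had log2 fold changes of 0.71, 0.68 and 0.47 (adjusted p = 0.167, 0.178 and 0.393). Among the other genes of pyruvate entry *Pcx* had -0.50 (SE 0.23, adjusted p = 0.22). The 7 genes from citrate to oxoglutarate had log2 fold changes from -0.23 to 0.45, with adjusted p-values of 0.446 to 0.979. *Ogdhl* had 0.456, 1.15 and 0.0786 CPM in db/db and 1.62, 0.748 and 1.42 CPM in db/+, with a log2 fold change of -1.64 (SE 0.74, adjusted p = 0.215). The lowest of these values rested on 5 counts. Of the aminotransferase and carrier genes, *Slc25a13* had a log2 fold change of 0.80 (SE 0.32, adjusted p = 0.165). The other 5 had estimates below 0, down to -0.52 for *Got1* (adjusted p = 0.344). The malate dehydrogenases had 0.43 for *Mdh1* (SE 0.36, adjusted p = 0.519) and -0.17 for *Mdh2* (SE 0.28, adjusted p = 0.77). Muscle markers were lower in db/db for 14 of 14 genes by their estimates, with a median log2 fold change of -0.93, and *Myh1* passed. With their mean level as a covariate the median of the 32 genes in db/db was 0.40, and 26 were above 0. Of 10 adipocyte markers, 4 were higher in db/db at an adjusted p under 0.05, and with their mean level as a covariate the median was -0.28, and 8 were above 0.

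The difference of the 2 models was tested gene by gene, as the log2 fold change in STZ-HFD less that in db/db. *Me3* passed, with a difference of 1.87 (SE 0.41, adjusted p = 0.0326), and 1.77% of all genes tested did. In db/db it had 4.23, 2.25 and 3.00 CPM and in db/+ 4.60, 6.80 and 4.82 CPM, a log2 fold change of -0.84 (SE 0.32, adjusted p = 0.145) with no overlap. The difference was lost with the muscle or the adipocyte covariate (adjusted p = 0.188 and 0.118) and under edgeR's quasi-likelihood test (adjusted p = 0.154). It kept its direction in all 28 alternatives, from 1.59 to 2.22, and passed in 6 of the 14 fits that left out a library. The calls lost were those without db/db replicate 2 or 3, db/+ replicate 1 or 2, Con+Veh replicate 3 or 4 and STZ-HFD replicate 2 or 3. Without STZ-HFD replicate 1, 3 genes passed (*Me3*, *Mdh2* and *Ogdh*), and without db/+ replicate 3, *Me3* and *Idh2* did. Next by adjusted p in the full fit were *Idh2* with 1.36 (SE 0.39, adjusted p = 0.0858) and *Ogdh* with 1.10 (SE 0.34, adjusted p = 0.0985). The estimates for *Mpc2* and *Sucla2* were -0.17 (SE 0.36) and -0.07 (SE 0.39).

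Ratios of isoforms and partners do not depend on the scaling of a library. They are given as log2 ratios of CPM, not corrected for length or for GC content (the share of G and C bases), and as descriptions without a test. Fold changes for db/db tended to be lower in genes of higher GC content (Spearman rho -0.43 over all genes tested). This correlation was weaker for STZ-HFD (rho -0.08). Genes of a pair can differ in GC content, as *Idh1* (43.8%) and *Idh2* (55.6%) did. The part of GC content in the ratios was not tested. In db/db 7 of 11 ratios had libraries that did not overlap with db/+, while for single genes the shares were the 14.1% and 11.7% given above, and the share over other pairs of genes was not computed. *Me3* to *Me2* was -1.90 to -2.72 in db/db and -0.75 to -1.27 in db/+. The ligase subunits *Suclg2* to *Sucla2*, which set whether GTP or ATP is made, stood at -1.05 to -1.58 in db/db and -0.73 to 0.17 in db/+. *Got1* to *Got2* was -2.05 to -2.20 in db/db and -1.57 to -1.85 in db/+, and *Mpc1* to *Mpc2* -5.14 to -5.83 against -3.39 to -4.91. Ratios that were higher in every db/db library were *Mdh1* to *Mdh2* (-2.47 to -3.16 against -3.33 to -3.71), *Idh1* to *Idh2* (-1.53 to -2.12 against -2.23 to -3.05) and *Acss1* to *Cs* (-2.91 to -3.44 against -3.51 to -4.30). In STZ-HFD none of the 11 ratios was free of overlap with Con+Veh. The ranges overlapped least for *Acss1* to *Cs*, at -3.02 to -3.65 in STZ-HFD and -3.50 to -4.34 in Con+Veh, and for *Suclg2* to *Sucla2*, at -1.67 to -1.96 against -0.61 to -1.84. Without STZ-HFD replicate 1, 3 of the 11 did not overlap, and 1 did not without STZ-HFD replicate 3 or 4 or Con+Veh replicate 1 or 2.

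**Figure D4:**
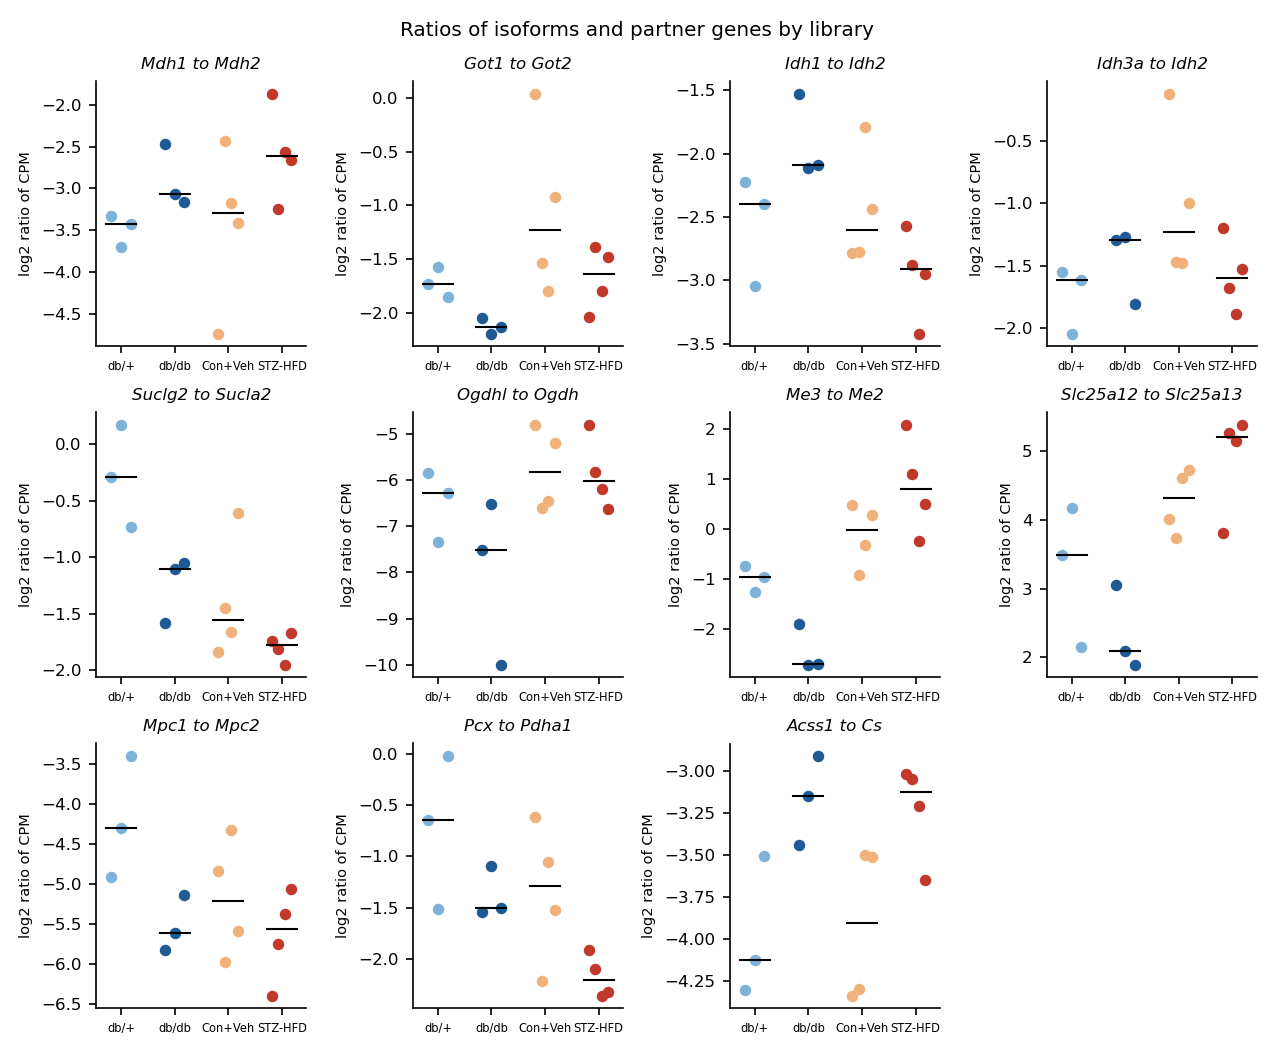
Log2 ratio of CPM (vertical axes) of 11 pairs of isoforms or partner genes in each library of the 4 groups, with group medians as lines. For 7 pairs, among them *Me3* to *Me2* and *Suclg2* to *Sucla2*, the db/db points are clear of the db/+ points, and for none of the 11 are the STZ-HFD points clear of the Con+Veh points.

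The cycle has further genes outside the 33. Of 28 others, 2 rose in STZ-HFD at an adjusted p under 0.05, where 1.65% of all genes tested did. Both encode subunits of succinate dehydrogenase, the enzyme shared by the cycle and the respiratory chain. *Sdhc*, a membrane anchor, had 107, 24.9, 40.9 and 37.1 CPM in STZ-HFD and 11.9, 24.8, 15.2 and 18.5 CPM in Con+Veh (log2 fold change 1.24, SE 0.27, adjusted p = 0.0208). *Sdha*, the flavoprotein, had 47.8, 65.2, 117 and 95.3 CPM against 25.5, 82.1, 42.0 and 49.7 CPM, with overlap (log2 fold change 0.98, SE 0.24, adjusted p = 0.0313). As with *Me3*, the *Sdhc* value of STZ-HFD replicate 1 was far above the other 3. None of the 28 fell in STZ-HFD at that threshold, where 1.8% of all genes did, and *Slc25a1*, the citrate carrier, had a log2 fold change of -0.88 (adjusted p = 0.232). None of the 28 passed in db/db, where 1.42% of all genes were higher and 0.508% lower. *Lipt2* acts in the making of the lipoyl group that the oxoacid dehydrogenases need. It had 3.97, 1.90 and 2.28 CPM in db/db and 0.698, 0.904 and 0.979 CPM in db/+ (log2 fold change 1.55, SE 0.39, adjusted p = 0.0502).

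Promoters were read for motifs because so many of these genes lay on the same side in STZ-HFD. The RefSeq table of windows from 250 bases before to 50 after each start (GRCm38.p6) held 31 of the 33 genes, in some cases with several starts. The nuclear respiratory factor 1 motif, GCGCNTGCG on either strand, was found in 5 of 31 (*Dld*, *Idh3g*, *Ogdh*, *Pdha1* and *Sucla2*) and in 7.12% of the 27025 genes of the table. The GC box, GGGCGG, was found in 21 of 31 and in 38.2% of all genes. The ETS motif, CCGGAAG, was held by 4 of 31 and 9.93% of all genes, and the E-box, CACGTG, by 4 of 31 and 8.09%. The core of the estrogen-related receptor element, AAGGTCA, was held by *Got1* and *Ogdh* (5.38% of all genes), and its longer form TCAAGGTCA, which contains the core, by none of 31 (0.466% of all genes). Among the 9 genes that passed in STZ-HFD, 7 held the GC box, 2 the nuclear respiratory factor 1 motif, 1 the E-box and 1 the receptor core. None of these 9 held the ETS motif or the longer form. Matches describe letters in these windows and no binding was measured. The sites of the factors best known for respiratory genes are shown for *Ogdh* and *Sucla2*, which passed in STZ-HFD, and for *Idh3g*, whose groups did not overlap, 5′ to 3′ along the gene with the motif in capitals. Each motif begins at most 72 bases before a RefSeq start, and those of *Ogdh* and *Sucla2* belong to starts inside the annotated gene. They lie at chr11:6292534-6292560 (+, nuclear respiratory factor 1), chr11:6292156-6292180 (+, receptor core), chr14:73552760-73552786 (+) and chrX:73786952-73786978 (-).
Ogdh, nuclear respiratory factor 1: aggtgttgtGCGCATGCGtaactcaac
Ogdh, receptor core: acacggcgcTGACCTTggtgcctgc
Sucla2, nuclear respiratory factor 1: tgcgtctctGCGCCTGCGcggtgccca
Idh3g, nuclear respiratory factor 1: tgtgactgtGCGCGTGCGtaatgctag

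For *Mdh2* and *Suclg1* the stretch between the window's start and the gene's annotated start is shown, as an example with a GC box in capitals and as 1 without any of the searched motifs. They lie at chr5:135778399-135778479 (+) and chr6:73248255-73248381 (+).
Mdh2: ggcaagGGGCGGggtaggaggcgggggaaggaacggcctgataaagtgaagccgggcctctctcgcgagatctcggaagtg
Suclg1: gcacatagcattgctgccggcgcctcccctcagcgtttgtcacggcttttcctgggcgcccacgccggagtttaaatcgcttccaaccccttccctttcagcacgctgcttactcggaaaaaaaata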

How the data were processed

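The authors aligned reads with STAR to Ensembl release 101 (GRCm38) and deposited gene counts from featureCounts, whole and not normalized, and estimated counts per transcript from Salmon. Repeated lines (287 of 55774 genes) were used once. Transcript counts, rounded after summing per gene, entered 1 alternative. GENCODE M21 gave positions and lengths.

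In R 4.3.3, counts were normalized with edgeR 4.0.16 (TMM), filtered to a CPM above 1 in at least 3 libraries, and fitted with limma 3.58.1 (voomWithQualityWeights), as the study's methods name it, all 14 samples in 1 fit with 4 group means. DESeq2 1.42.0 was an alternative. Log2 ratios used a prior count of 2. p-values were adjusted by Benjamini-Hochberg within a contrast. The fit was tested on simulated data.

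Genes past an adjusted p of 0.05 in a model are given in every library of that model, and the others by value, range or count. The genes, lists and tests were chosen with earlier results of these data known. Groups and replicate numbers follow the labels. A shared number was not taken to join mice. The deviations of same-numbered samples correlated at -0.28 to 0.19 and those of other pairs at -0.28 to 0.45, too few values to exclude a pairing. Alternatives were other tests, scalings and filters, models fitted alone, a replicate block, GC correction, marker covariates, removal of ribosomal RNA genes and leaving out libraries.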

Additional observations from a re-analysis of the deposited data

Results flagged for a closer look

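The effect on *Me3* differed between the models, with a log2 fold change of STZ-HFD minus that of db/db of 1.87 (adjusted p = 0.0326, limma). In groups of 4, a sample was marked by Dixon's test, where its gap to the nearest other sample took most of the group's range, which chance does in about 1 group in 20, and 4 of 66 groups tested were marked. *Me3* was at 30.4 CPM in STZ-HFD replicate 1, above the other STZ-HFD mice. *Slc25a11* was at 4.07 CPM in the same library, below the other STZ-HFD mice. *Aco1* at 11.2 CPM and *Got1* at 20.4 CPM were lowest in Con+Veh replicate 3, the library with the highest weight in the fit.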

How the results depend on the processing

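The 9 genes past the test in STZ-HFD, and *Mpc2* in db/db, kept their direction under all 29 alternatives, and *Me3* kept that of its difference. Among genes that did not pass, 6 of 23 in STZ-HFD and 23 of 31 in db/db changed sign under at least 1. In STZ-HFD, the 5 genes called higher became 0 under edgeR's quasi-likelihood test, voom without weights, transcript counts, either covariate and without both libraries of high mitochondrial ribosomal RNA. They became 7 with RLE factors, 4 without ribosomal RNA genes, 3 with DESeq2, 2 with filterByExpr and 1 with no filter. With no minimum on the fold change they became 9, and when libraries were left out 0 to 10. The 9 with no minimum became 10 with RLE factors, 6 without ribosomal RNA genes and 5 with the models fitted alone. They became 0 to 14 when libraries were left out, the 14 without STZ-HFD replicate 1. Under the alternatives that took the calls to 0, 3, 2 and 1 they became the same numbers. The median of 0.83 became 0.55 under the quasi-likelihood test and 0.30 with the muscle covariate, and was 0.64 to 0.90 when libraries were left out. In db/db the 1 gene called higher became 0 under the quasi-likelihood test, DESeq2, voom without weights, filterByExpr, GC correction, transcript counts and the adipocyte covariate, 2 with the models fitted alone, and 0 to 2 when libraries were left out (*Sucla2* joined without STZ-HFD replicate 2), and so did the count with no minimum. The db/db median of 0.02 became 0.40 with the muscle and -0.28 with the adipocyte covariate, and turned sign when libraries were left out, from -0.16 without db/+ replicate 3 and -0.05 without db/db replicate 1 to 0.21 without db/+ replicate 2. Its 17 positive estimates became 26 and 8 with these, and 12 to 26 when libraries were left out, the 26 without db/+ replicate 2. The 1 gene of the difference became 0 under the quasi-likelihood test, voom without weights, no filter, transcript counts, both covariates and without both libraries, and 0 to 3 when libraries were left out. The 2 other genes in STZ-HFD became 1 with DESeq2, filterByExpr or models fitted alone, 0 with no filter and in the fits that took the calls above to 0, and 0 to 4 when libraries were left out, 0 without Con+Veh or STZ-HFD replicate 3 or 4 and 4 without Con+Veh replicate 2. In db/db, *Lipt2* became 1 such gene with RLE factors, no filter, GC correction or without ribosomal RNA genes, and 0 to 1 genes passed when libraries were left out, 1 without Con+Veh replicate 2 or STZ-HFD replicate 3. Overlap-free ratios in STZ-HFD numbered 0 to 3 when libraries were left out.

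A replicate block, which pairs different mice by number, left 0 of the 5 and 9 genes in STZ-HFD, 0 in the difference and 0 of the 2 other genes, also with GC correction. In STZ-HFD 0.0118% of all genes were called higher with the block, and 0.00591% with GC correction added. In db/db it gave 2 genes called higher (*Mpc2* and *Sucla2*) and 1 lower (*Ogdhl*), 4 higher with no minimum and 4 other genes, and with GC correction 0, 3 and 2. The block called many genes of all kinds in db/db, 4.71% higher, 4.07% lower and 10.3% higher with no minimum, so these counts lie near the background. The cause of these changes was not tested. Transcript totals were under 10% of the gene counts for *Ogdh* (0.335%), *Got1*, *Idh1*, *Fh1*, *Slc25a11* and *Idh3b*, so that alternative says little of them. Libraries of 16076908 to 58943169 counts limit *Mpc1* and *Ogdhl* most, whose db/db values reach 0.416 and 0.0786 CPM.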
